A study of Mus musculus with 2 samples.

Results

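The acute-phase response is the change in secreted liver proteins that follows inflammation, and the genes described here are 37 that take part in it. They are the secreted acute-phase proteins and the receptors, kinases and transcription factors of interleukin-6 (IL-6) and interleukin-1 (IL-1) signalling, chosen by gene symbol. On the array, 35 of the 37 had a probe set that the platform annotation assigns to that gene alone, among 18193 genes named in all. Serpina3m and Serpina3k had none in the annotation used here and are not analysed. Each gene is read by its brightest probe set, and its other sets serve as a check. The 35 genes had 62 probe sets, and all 35 were above the floor for a usable signal on both arrays.

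Liver RNA was measured on Affymetrix mouse arrays in 2 male mice aged 3 months, after a fast overnight. The first was a Tmprss6-deficient mouse, of genotype Tmprss6-/-, made by gene targeting. The other was a control mouse, for which the labels state no genotype. Both were of 129Sv/C57BL6 strain background. On a mixed background 2 animals can differ at other loci, so the effect of the genotype and a difference between these individuals cannot be told apart. Tmprss6 encodes matriptase-2, a membrane serine protease of hepatocytes that restrains the iron hormone hepcidin. The question is which liver transcripts differ when the protease is absent.

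In the acute-phase response, IL-6 binds its receptor and the shared subunit gp130 on hepatocytes, JAK kinases are activated, and phosphorylated STAT3 enters the nucleus and switches on secreted-protein genes, while SOCS3 feeds back on the receptor. IL-1 acts through NF-kB and C/EBP factors, and the serum amyloid A and orosomucoid genes respond to both cytokines. Liver albumin and transthyretin fall in the same response and are called negative acute-phase proteins. STAT3 also acts on the hepcidin gene, which ties this response to iron.

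With 1 array per genotype, no replicate error can be computed and no test was run, so every value below compares 2 individual animals. Precision is limited by the number of arrays. Signals are on the linear MAS5 scale, and the floor is a signal of 17.8, the median of all probe sets. Ratios are Tmprss6-deficient over control on the log2 scale. The only measure of error is the standard deviation of the difference in log2 ratio between 2 probe sets of 1 gene. It is divided by the square root of 2 to stand for 1 set, and it holds no variation between animals. It was 0.46 below a signal of 64, 0.37 from 64 to 256, 0.32 from 256 to 1024 and 0.18 above 1024. Signals of different genes are not set against each other, since each probe set has its own brightness. The targeted gene, Tmprss6, read 88.1 in the Tmprss6-deficient liver and 1868 in the control liver, which was 21.2-fold lower. The sources used here do not say whether its probe set lies in the deleted part. All 8 hepatocyte markers were above the floor on both arrays, with a summed signal of 142753 in the Tmprss6-deficient liver and 150452 in the control liver. Of these 8, 1 was at least 1.5-fold higher, or 12.5%, and 0 lower, against 8.86% and 9.20% of all genes. Their log2 ratios ran from -0.56 to 0.62, with a median of -0.041. Markers of other cell types named here were picked after their values were seen. Lyve1, an endothelial marker, was 4.71-fold higher, with 9 endothelial markers summing to 1367 in the Tmprss6-deficient liver and 1390.0 in the control liver. Of these 9, 3 were at least 1.5-fold higher and 2 lower, against 8.86% and 9.20% of all genes. Their median log2 ratio was 0.14. Acta2, of stellate and smooth muscle cells, was 5.76-fold lower, with 9 stellate markers summing to 1777 and 2282 in the same order. Most of that difference is Acta2 itself, at 89.2 in the Tmprss6-deficient liver and 514 in the control liver. The stellate list had a median log2 ratio of 0.037, with 5 of 9 above 0, and no other marker of it passed 1.5-fold. The erythroid markers Alas2 and Klf1 were 2.56-fold and at least 3.23-fold lower. They were 2 of 3 measured erythroid markers, or 66.7%, against 9.20% of all genes. The 3 summed to 255 in the Tmprss6-deficient liver and 671 in the control liver. Most of each sum is Alas2, at 232 and 593 in the same order. The third, Hba-a1, read 11.9 in the Tmprss6-deficient liver, below the floor, and 20.6 in the control liver. The part of these differences in the values below was not tested.

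Of the 35 measured genes, 12 were at least 1.5-fold higher in the Tmprss6-deficient liver, or 34.3%, against 8.86% of all 12243 measured genes. At least 1.5-fold lower were 3 genes, or 8.57%, against 9.20% of all genes, a share near the background. At 2-fold, 8 were higher and 2 were lower, against 2.38% and 2.78% of all genes. The median log2 ratio over the 35 was 0.18, against -0.0050 over all measured genes. It was 0.061 over plain _at sets, which leave out sets flagged as matching several transcripts, and 0.39 over the second brightest sets, and with the mean of all sets or the second brightest 1 gene was lower instead of 3. With the second brightest set, which 15 of the 35 genes have, 5 were higher. The higher genes were mostly secreted proteins that inflammation induces. Of 17 such genes, 8 were at least 1.5-fold higher, 1 was lower by that much and 8 lay in between. These shares were 47.1% higher and 5.88% lower, against 8.86% and 9.20% of all genes. Saa1 and Saa2 are both among the higher genes, and their probe sets may read both transcripts, so they may not be separate measurements. Of 5 secreted proteins that are constitutive or fall in inflammation, 5 lay within 1.5-fold, as did 10032 of the 12243 measured genes. Of 11 receptors and signalling genes, 3 were on the higher side, 2 on the lower, and 6 in between. Their shares of 27.3% higher and 18.2% lower were both above the 8.86% and 9.20% of all genes. The 2 lower genes were Socs3 and Nfkbia. Socs3 was lower by that much on 1 of its 3 sets, and Nfkbia just reached 1.5-fold on the brightest of its 5 sets alone.

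**Figure D1:**
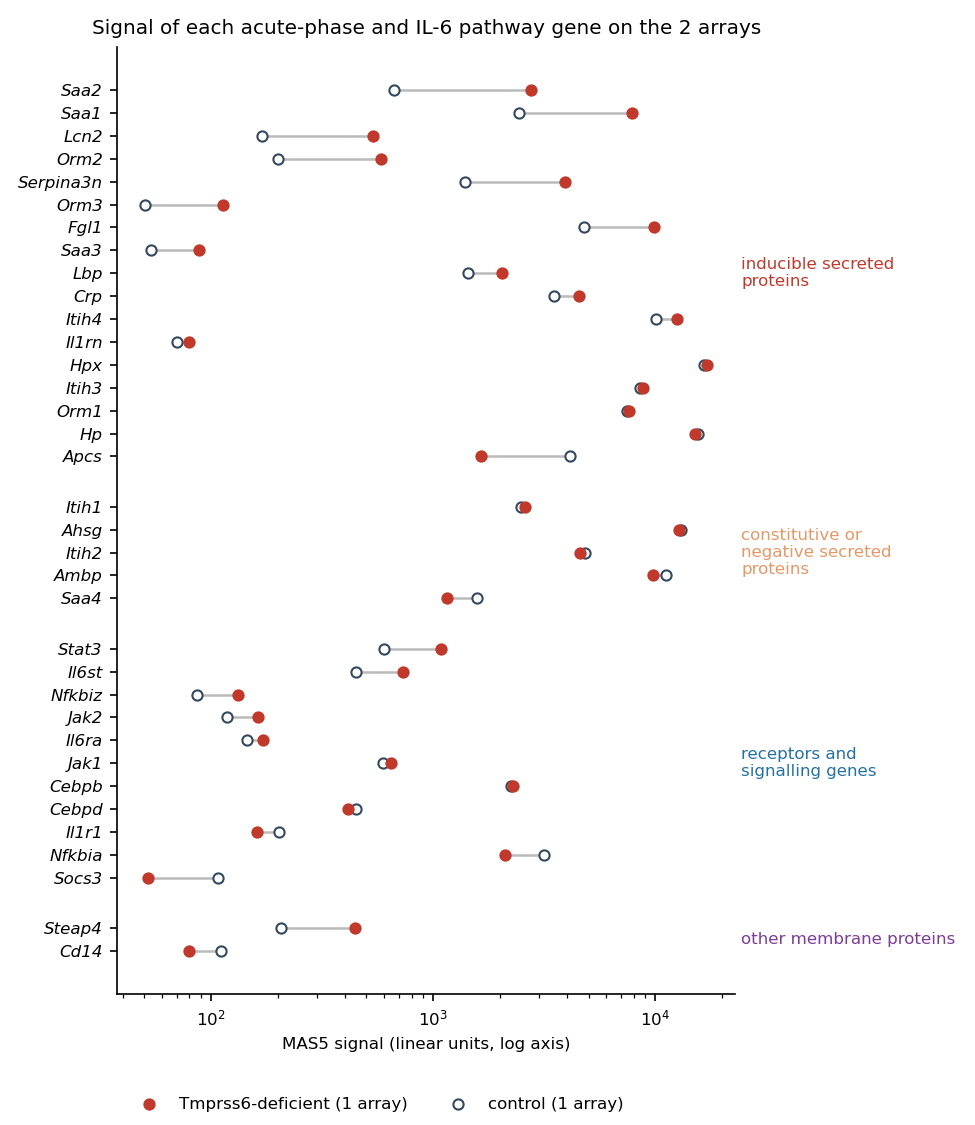
MAS5 signal (log axis) of the brightest probe set of each of the 35 genes in the Tmprss6-deficient liver (filled) and the control liver (open), grouped by role, 1 array each. The filled point lies clearly to the right for Saa2, Saa1, Lcn2, Orm2 and Serpina3n and to the left for Apcs, while the points of Hp, Hpx and Ahsg nearly coincide.

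The serum amyloid A proteins are small apolipoproteins of high-density lipoprotein that inflammation induces in liver. Saa2 read 2759.9 in the Tmprss6-deficient liver and 669 in the control liver, 4.12-fold higher, with a log2 ratio of 2.04 against a probe set spread of 0.18. Its probe set ends in _x_at, a kind whose probes can match other transcripts. It ranked 28 from the top of the 12243 measured genes. Saa1 was read by 2 probe sets, both higher. The brighter, 1419075_s_at, read 7810.0 in the Tmprss6-deficient liver and 2440.5 in the control liver, 3.20-fold higher. The other, 1450788_at, read 6424 and 2427 in the same order and was 2.65-fold higher. The accession listed for the brighter set is a RefSeq transcript of Saa2 rather than of Saa1, and only the other set carries a transcript of Saa1. Saa1 and Saa2 are near-identical, so these sets may read both, and the values give the pair better than either gene. Saa3, which macrophages and fat make as well as liver, read 87.9 in the Tmprss6-deficient liver and 53.6 in the control liver, 1.64-fold higher. Saa4 is the constitutive member. Its brighter set read 1156 in the Tmprss6-deficient liver and 1569 in the control liver, a log2 ratio of -0.44. Its dimmer set read 258 in the Tmprss6-deficient liver and 218 in the control liver, 0.25 on the log2 scale, in the opposite direction. The 4 genes lie side by side on chromosome 7 in the order Saa3, Saa4, Saa1, Saa2 (RefSeq, GRCm38.p6) with no other protein-coding gene between them. So a gene within 1.5-fold on its brighter set lay between genes that were 1.64-fold and 3.20-fold higher.

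The orosomucoids, or alpha-1-acid glycoproteins, carry drugs and lipids in plasma. Orm2 read 581 in the Tmprss6-deficient liver and 200.5 in the control liver, 2.90-fold higher. Orm3 read 113 in the Tmprss6-deficient liver and 50.7 in the control liver, 2.23-fold higher. Orm1 read 7635 in the Tmprss6-deficient liver and 7445 in the control liver, a log2 ratio of 0.04, well within the probe set spread of 0.18. The 3 genes are neighbours on chromosome 4 with no other protein-coding gene between them, and Orm1 lay within the spread while its neighbours were more than 2-fold higher. Whether the Orm probe sets read each other's transcripts was not tested.

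The promoters of the secreted-protein genes that differed by 2-fold or more are shown because several of these genes moved together and one moved the other way. A promoter was available for 7 of these 8 genes and for 28 of the 37 in all. Each line gives the 250 bases before the transcription start, from RefSeq on build GRCm38.p6, 5′ to 3′ on the gene's strand. Capitals mark matches to 3 motifs searched on both strands. These were TTCNNNGAA for STAT factors, TTGCNNAA for C/EBP and GGGANNNNCC for NF-kB, where N is any base. Capitals belong to a C/EBP match in the Saa, Orm and Lcn2 lines, to NF-kB in the Serpina3n line and to STAT in the Apcs line.
Saa1, chr7:46742981-46743230, minus strand: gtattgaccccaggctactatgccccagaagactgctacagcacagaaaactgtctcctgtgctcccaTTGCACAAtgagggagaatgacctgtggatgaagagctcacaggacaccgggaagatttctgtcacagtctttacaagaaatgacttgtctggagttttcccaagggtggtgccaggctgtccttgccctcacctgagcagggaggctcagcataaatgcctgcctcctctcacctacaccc
Saa2, chr7:46751583-46751832, plus strand: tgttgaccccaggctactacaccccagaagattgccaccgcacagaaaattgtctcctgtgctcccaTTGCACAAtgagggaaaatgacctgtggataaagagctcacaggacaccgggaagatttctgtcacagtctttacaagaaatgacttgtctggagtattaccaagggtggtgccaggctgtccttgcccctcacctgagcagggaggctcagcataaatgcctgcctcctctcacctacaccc
Orm2, chr4:63362199-63362448, plus strand: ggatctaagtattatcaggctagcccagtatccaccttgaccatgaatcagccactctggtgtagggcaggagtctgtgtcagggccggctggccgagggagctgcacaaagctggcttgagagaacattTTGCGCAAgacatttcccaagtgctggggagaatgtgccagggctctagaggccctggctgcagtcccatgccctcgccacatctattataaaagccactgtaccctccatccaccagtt
Orm3, chr4:63355908-63356157, plus strand: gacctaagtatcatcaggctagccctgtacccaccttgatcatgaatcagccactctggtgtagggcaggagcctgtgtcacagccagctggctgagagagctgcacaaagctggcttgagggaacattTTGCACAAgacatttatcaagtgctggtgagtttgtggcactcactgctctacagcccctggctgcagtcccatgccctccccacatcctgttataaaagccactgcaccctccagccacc
Lcn2, chr2:32387740-32387989, minus strand: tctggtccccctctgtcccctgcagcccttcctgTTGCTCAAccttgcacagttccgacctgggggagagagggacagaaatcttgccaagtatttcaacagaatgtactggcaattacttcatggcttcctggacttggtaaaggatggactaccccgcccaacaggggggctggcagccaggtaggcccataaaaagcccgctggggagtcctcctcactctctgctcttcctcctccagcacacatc
Serpina3n, chr12:104406458-104406707, plus strand: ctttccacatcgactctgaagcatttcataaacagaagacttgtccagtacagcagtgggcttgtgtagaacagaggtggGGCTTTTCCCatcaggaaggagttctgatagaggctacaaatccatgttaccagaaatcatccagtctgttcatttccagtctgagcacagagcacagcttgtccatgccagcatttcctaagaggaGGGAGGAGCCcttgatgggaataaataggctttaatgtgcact
Apcs, chr1:172895055-172895304, minus strand: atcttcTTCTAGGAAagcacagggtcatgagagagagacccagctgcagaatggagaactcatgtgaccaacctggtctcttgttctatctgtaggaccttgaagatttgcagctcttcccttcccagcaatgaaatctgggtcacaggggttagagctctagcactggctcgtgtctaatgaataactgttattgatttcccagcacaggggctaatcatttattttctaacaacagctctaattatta

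The Saa1 and Saa2 promoters were 94.8% identical, with 11 mismatched bases and 2 gap bases in a global alignment, and those of Orm2 and Orm3 were 85.9% identical. The match TTGCACAA lay 182 to 175 bases before the start of Saa1 and 183 to 176 before that of Saa2. In Orm2 the match was TTGCGCAA, 120 to 113 bases before the start, and in Orm3 it was TTGCACAA, 121 to 114 before it. Lcn2 had TTGCTCAA at 216 to 209. Of 13 inducible secreted-protein genes with a promoter, 7 had a C/EBP match, against 9.56% of all 32851 promoters of the same length, as did 3 of 5 constitutive or negative ones and 1 of 9 receptors and signalling genes. The constitutive gene Saa4, with a ratio below 0 on its brighter set, is among those with a match, as is Hpx, which read nearly the same on both arrays. A STAT match was found in 2 of 13 inducible genes, Apcs and Itih4, against 7.02% of all promoters. An NF-kB match was found in 2 of 13, Serpina3n and Il1rn, against 17.6%. Among the 9 receptors and signalling genes, 1 had a STAT match, Socs3. An NF-kB match was present in 4 of those 9, Cebpb, Il6ra, Nfkbia and Socs3. Of the 5 constitutive or negative genes, 0 had a STAT match and 1 had an NF-kB match. Steap4 held all 3 motifs. Paralogs share ancestry and are not independent here, and a match says only that these letters are present.

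Lcn2 encodes lipocalin-2, which binds bacterial siderophores and so withholds iron from microbes. It read 534 in the Tmprss6-deficient liver and 170.5 in the control liver, 3.13-fold higher on its only probe set. Neutrophils also carry Lcn2 in their granules. Of 12 neutrophil markers, 10 were named on the array and 7 were above the floor on at least 1 array, with 2 past 1.5-fold upward, or 28.6% against 8.86% of all genes, and 1 downward. The summed signal of these 7 was 188 in the Tmprss6-deficient liver and 217 in the control liver, and Camp, Mpo and Cxcr2 were below the floor on both. Serpina3n, an inhibitor of serine proteases, read 3919 in the Tmprss6-deficient liver and 1387 in the control liver, 2.83-fold higher. Fgl1, a fibrinogen-like protein secreted by hepatocytes, read 9853 in the Tmprss6-deficient liver and 4796 in the control liver, 2.05-fold higher. All 3 of these genes were among the 257 highest ratios of the 12243 measured genes.

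Several other inducible proteins differed less. Lbp carries bacterial lipopolysaccharide to its receptor. Its brighter set read 2036 in the Tmprss6-deficient liver and 1429 in the control liver, 1.42-fold higher, and its dim set was 1.19-fold higher. Crp (C-reactive protein), a minor acute-phase protein in mice, read 4552 in the Tmprss6-deficient liver and 3492 in the control liver, a log2 ratio of 0.38. Itih4, of the inter-alpha-trypsin inhibitor heavy chain family, read 12516 in the Tmprss6-deficient liver and 10043 in the control liver, 0.32 on the log2 scale. These 3 ratios were 2.9, 2.2 and 1.8 times the probe set spread, in that order, and below 1.5-fold. Hp (haptoglobin), which captures free hemoglobin, read 15102 in the Tmprss6-deficient liver and 15579.8 in the control liver, a log2 ratio of -0.04. Hpx (hemopexin), which captures free heme, read 17076 in the Tmprss6-deficient liver and 16474 in the control liver, 0.05 on the log2 scale. Itih3 read 8798 in the Tmprss6-deficient liver and 8527 in the control liver, also 0.05. Each of these 3 lay within the probe set spread. Saturation of such bright sets could not be assessed from the values used here.

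Apcs was the exception among the inducible secreted proteins. It encodes serum amyloid P, the pentraxin that is a major acute-phase protein in mice. Apcs read 1642 in the Tmprss6-deficient liver and 4108 in the control liver, 2.50-fold lower, with a log2 ratio of -1.32 that was 7.5 times the probe set spread. It ranked 150 from the bottom of the measured genes. Crp, the other pentraxin here and also on chromosome 1, had a ratio above 0. Apcs had 1 probe set, so no other set checks it.

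Il1rn encodes the IL-1 receptor antagonist, and its 3 dim probe sets did not share a direction. The brightest read 79.3 in the Tmprss6-deficient liver and 70.1 in the control liver. The next read 47.3 in the Tmprss6-deficient liver and 76.6 in the control liver, 1.62-fold lower, and the dimmest read 46.0 and 26.9 in the same order, 1.71-fold higher. No direction is given for Il1rn.

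Among constitutive and negative secreted proteins, beside Saa4, the ratios lay between -0.19 and 0.06 on the log2 scale. Itih1 read 2584 in the Tmprss6-deficient liver and 2477 in the control liver. Itih2 read 4563 in the Tmprss6-deficient liver and 4819.8 in the control liver. Ambp, which is cut into alpha-1-microglobulin and bikunin, read 9769.5 in the Tmprss6-deficient liver and 11171 in the control liver, the lowest of these 4 at -0.19. Ahsg (fetuin-A), a negative acute-phase protein that inhibits calcification, read 12758 in the Tmprss6-deficient liver and 13066 in the control liver. The median of this role group was -0.079 over 5 genes.

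**Figure D2:**
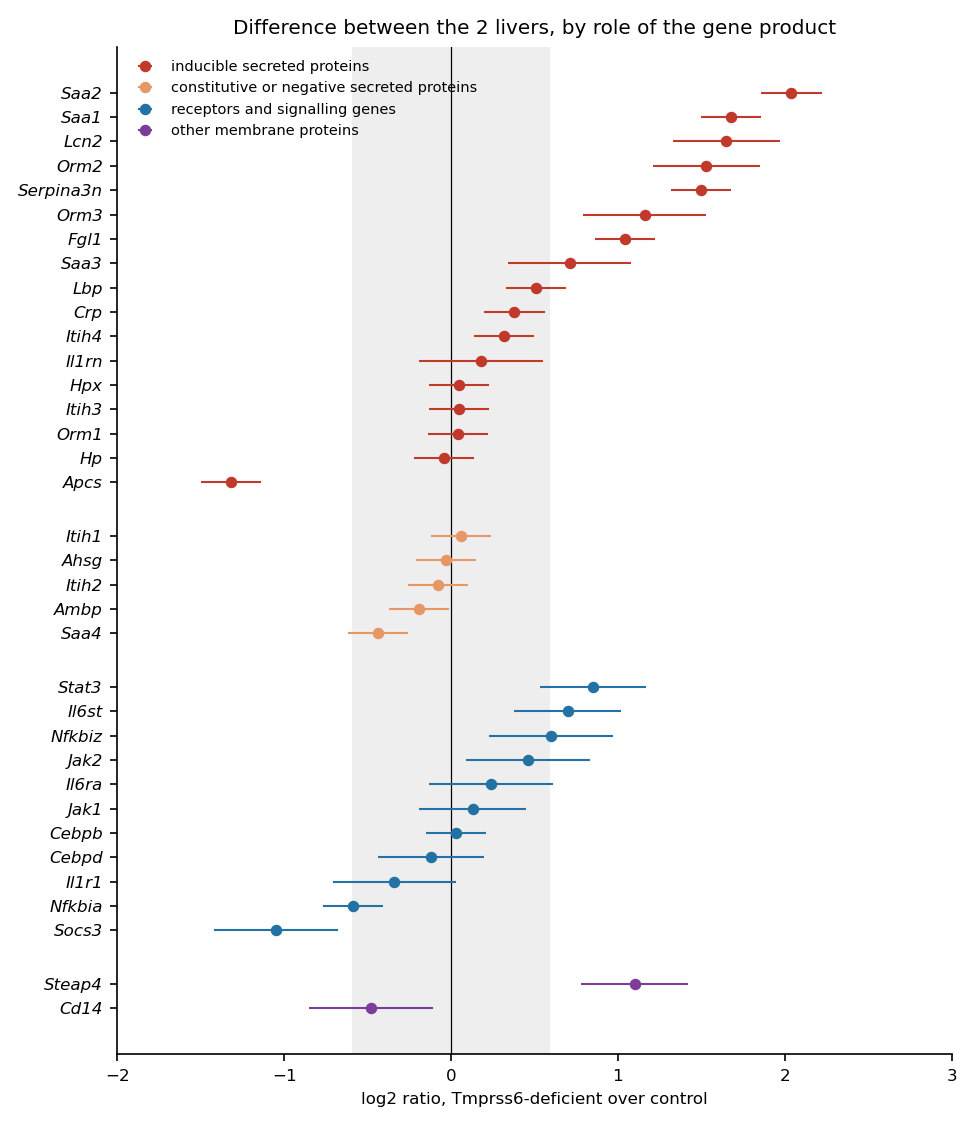
Log2 ratio, Tmprss6-deficient over control, of the brightest probe set of each gene, coloured by role. Bars are plus and minus 1 standard deviation between probe sets of a gene at that signal, not an error between animals, and the grey band is 1.5-fold in either direction. Of the inducible secreted proteins 8 lie right of the band and Apcs left of it, while the 5 constitutive or negative ones lie inside it.

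Of the receptors, those for IL-6 had ratios above 0 and the one for IL-1 had a ratio below 0. On the brightest sets only the ratio of Il6st was larger than the probe set spread. Il6st encodes gp130, the signalling subunit shared by IL-6 family cytokines. Its brightest set read 729.5 in the Tmprss6-deficient liver and 450.0 in the control liver, 1.62-fold higher. The next read 607 in the Tmprss6-deficient liver and 416 in the control liver, 1.46-fold higher, and the third read 119 and 69.4 in the same order, 1.72-fold higher. The dimmest set was above the floor in the Tmprss6-deficient liver alone, at 32.3, which is at least 1.81-fold higher. All 4 sets of Il6st thus lay on the same side. Il6ra, the ligand-binding receptor, read 171 in the Tmprss6-deficient liver and 145 in the control liver on its brighter set, 1.18-fold higher. That log2 ratio of 0.24 is within the probe set spread of 0.37. On a dimmer set Il6ra was 1.67-fold higher (65.4 and 39.2). Il1r1, the receptor for IL-1, read 160.3 in the Tmprss6-deficient liver and 202 in the control liver, a log2 ratio of -0.34 that is within the probe set spread of 0.37. Its other set was below the floor on both arrays.

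Stat3, the transcription factor that IL-6 activates, was higher on its bright sets. The brightest read 1083 in the Tmprss6-deficient liver and 601 in the control liver, 1.80-fold higher, and the next read 619 and 359 in the same order, 1.73-fold higher. Of 2 dim sets, 1 read 32.8 in the Tmprss6-deficient liver and 26.8 in the control liver, and the other read 21.2 and 39.6 in the same order, 1.87-fold lower. The sets therefore agreed above a signal of 256 and not near the floor. Jak1, a kinase bound to gp130, was higher on all 3 sets, by 1.09-fold, 1.40-fold and 1.34-fold in order of signal. Jak2 read 163 in the Tmprss6-deficient liver and 118 in the control liver on its brighter set, 1.38-fold higher, and was 1.10-fold lower on the other. No set of either kinase reached 1.5-fold.

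Socs3, the feedback inhibitor that STAT3 induces, gave different answers by probe set. The brightest by mean log2 signal, 1455899_x_at, read 52.1 in the Tmprss6-deficient liver and 108 in the control liver, 2.08-fold lower. The second, 1456212_x_at, read 62.5 in the Tmprss6-deficient liver and 59.5 in the control liver. The third, 1416576_at, read 38.6 in the Tmprss6-deficient liver and 38.7 in the control liver. So 1 set of 3 carries the lower value, and it alone puts Socs3 among the lower genes. The brightest and the second are both _x_at sets.

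The transcription factors and inhibitors of the IL-1 arm follow, C/EBP genes first. Cebpb, an activator of acute-phase promoters, read 2275 in the Tmprss6-deficient liver and 2231 in the control liver, and 673 and 623 on its dimmer set. Cebpd, a related activator that inflammation induces strongly, read 414 in the Tmprss6-deficient liver and 451 in the control liver. A dim set of Cebpd read 34.5 in the Tmprss6-deficient liver and 18.1 in the control liver, 1.91-fold higher and near the floor. Nfkbia encodes the inhibitor that holds NF-kB in the cytoplasm, and was lower on 4 of 5 sets. The brightest read 2099 in the Tmprss6-deficient liver and 3152 in the control liver, 1.5-fold lower, and the others on that side were 1.23-fold, 1.14-fold and 1.21-fold lower. The dimmest read 98.9 in the Tmprss6-deficient liver and 82.6 in the control liver. Nfkbiz, an inducible nuclear cofactor of NF-kB, was higher on 3 of 3 sets. Its brightest read 132 in the Tmprss6-deficient liver and 86.5 in the control liver, 1.52-fold higher, and the others were 1.31-fold and 1.64-fold higher. The 2 NF-kB inhibitor family genes thus lay on opposite sides.

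**Figure D3:**
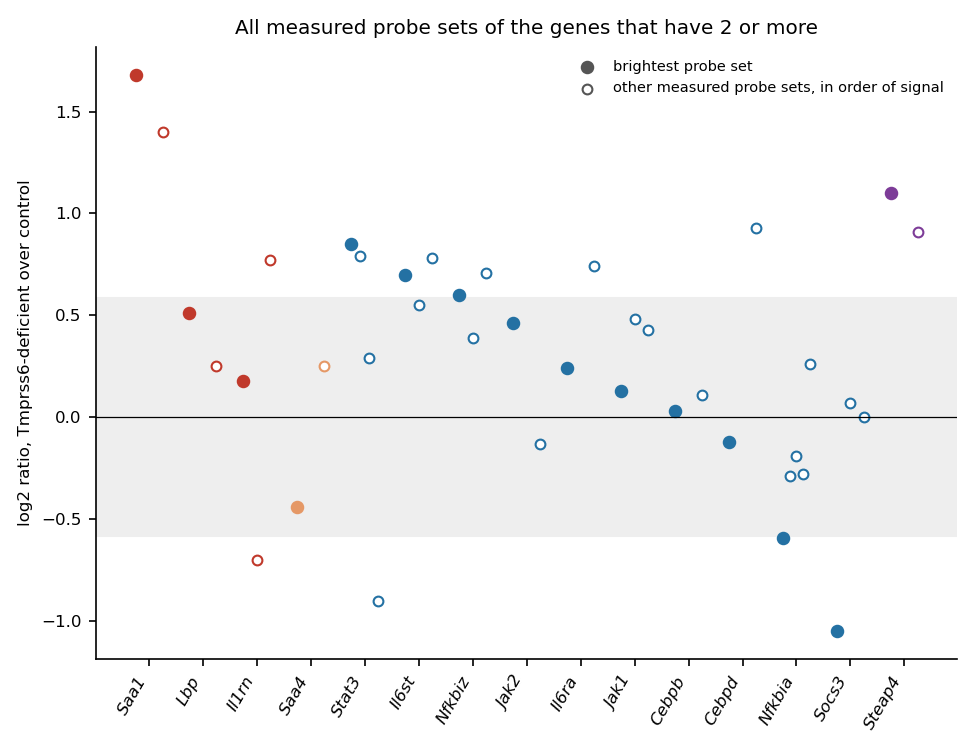
Log2 ratio, Tmprss6-deficient over control, of every measured probe set of the 15 genes with 2 or more, the brightest filled and the others open in order of signal, with the colours of the role groups and a grey band of 1.5-fold. The sets of Saa1, Il6st, Nfkbiz and Steap4 lie on one side of 0, and those of Il1rn, Saa4, Stat3, Cebpd, Jak2, Nfkbia and Socs3 on both.

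The remaining genes encode membrane proteins. Steap4, a metalloreductase that inflammation induces in several tissues, read 443 in the Tmprss6-deficient liver and 207 in the control liver, 2.14-fold higher, and 1.89-fold higher on its other set (153 and 81.0). Cd14, the co-receptor for bacterial lipopolysaccharide, read 79.6 in the Tmprss6-deficient liver and 111 in the control liver, a log2 ratio of -0.48. Macrophages carry Cd14 and Il1rn as well. Of 10 Kupffer cell and macrophage markers, 1 lay above and 3 lay below by at least 1.5-fold, against 8.86% upward and 9.20% downward of all genes. Their median log2 ratio was -0.34, with 8 of 10 below 0 and a summed signal of 2712 in the Tmprss6-deficient liver and 3599 in the control liver. Their part in the Cd14 and Il1rn values was not tested. In whole liver, fewer cells of a type and less RNA per cell cannot be told apart.

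Set side by side, the inducible secreted proteins had a median log2 ratio of 0.51 over 17 genes and the receptors and signalling genes one of 0.13 over 11. Taking all 22 secreted proteins together the median was 0.25, which is 0.12 above that of the signalling genes. The contrast of inducible secreted proteins with signalling genes turned round with the second brightest set, at 0.25 and 0.43. Of the inducible genes only Saa1, Lbp and Il1rn have such a set, and the 0.25 is the value of the dim Lbp set. That setting therefore compares fewer genes and cannot check the contrast over all 17. The smaller difference over all secreted proteins turned round with the choice of probe set, to -0.055 with the mean of all measured sets, to -0.19 with the second brightest set and to -0.070 with plain _at sets alone. The larger ratios were in the secreted proteins, from -1.32 to 2.04, while those of the signalling genes ran from -1.05 to 0.85. Of the 15 genes with 2 or more measured sets, the 2 brightest shared a direction in 10, against 60.8% of 4367 genes. All measured sets did so in 8. The other 20 genes had 1 measured set and no such check.

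**Figure D4:**
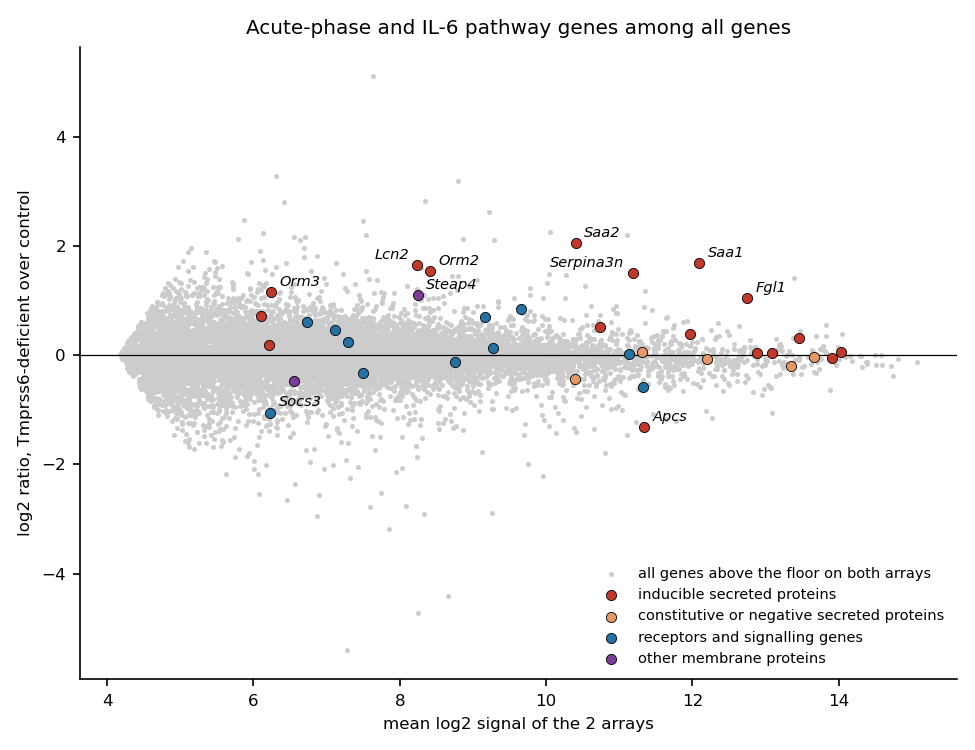
Log2 ratio, Tmprss6-deficient over control, against the mean log2 signal of the 2 arrays, for all genes above the floor on both (grey) and for the 35 genes by role, with names where the difference was 2-fold or more. Saa2, Saa1, Serpina3n and Fgl1 stand above the narrow cloud of bright genes and Apcs below it, while Socs3 and Orm3 lie where the cloud is wide.

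Other inducible acute-phase genes mostly lay within 1.5-fold, as did 10032 of the 12243 measured genes. Of 23 measured, 3 passed 1.5-fold upward, or 13.0% against the 8.86% of all genes. Downward 1 passed it, or 4.35% against 9.20%, and 19 stayed inside, around a median log2 ratio of 0.11. The metallothionein gene Mt2 read 4712 in the Tmprss6-deficient liver and 1030.2 in the control liver, 4.57-fold higher, while Mt1, named after its value was seen, read 7372 and 7713 in the same order, with its 2 sets on opposite sides. Hamp, which encodes hepcidin and responds to BMP signals as well as to STAT3, read 17531 in the Tmprss6-deficient liver and 6593 in the control liver, 2.66-fold higher. Slc39a14, a zinc and iron importer that IL-6 induces, read 657 in the Tmprss6-deficient liver and 359 in the control liver, 1.83-fold higher, with all 3 of its measured sets above 0. Il4ra, the IL-4 receptor, read 81.2 in the Tmprss6-deficient liver and 56.0 in the control liver. Ifitm3 (2581 and 3884) and Vwf (37.2 and 52.0) had log2 ratios of -0.59 and -0.48, with the Tmprss6-deficient value first in each pair. The rest of the list lay on both sides, with 10 of the 23 ratios below 0.

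Negative acute-phase genes had a median log2 ratio of -0.075 over 13 measured, with 11 ratios below 0. Of these 13, 12 stayed inside 1.5-fold, as did 10032 of the 12243 measured genes. Downward 1 passed it, or 7.69% against 9.20% of all genes. The exception was Cyp7a1, which starts bile acid synthesis from cholesterol. It read 225 in the Tmprss6-deficient liver and 1672 in the control liver, 7.45-fold lower. Serpina6, the corticosteroid carrier, read 271 in the Tmprss6-deficient liver and 345 in the control liver, and Fetub, a relative of fetuin-A, read 4979 and 4046 in the same order. F12 (coagulation factor XII), Cyp2c29 and Apoa2 had log2 ratios of 0.21, -0.20 and -0.20.

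A further list held IL-6 family, JAK-STAT and feedback genes together with transcription factors of the hepatocyte. Of its 34 measured genes, 5 passed 1.5-fold upward, or 14.7%, and 3 downward, or 8.82%, against 8.86% and 9.20% of all genes, around a median log2 ratio of 0.16. The kinase gene Pim3 read 683 in the Tmprss6-deficient liver and 1848 in the control liver, 2.71-fold lower on the brighter of 2 sets, both lower. Bcl3, a nuclear IkB protein that STAT3 induces, read 263 in the Tmprss6-deficient liver and 106 in the control liver, 2.48-fold higher. The liver transcription factor genes Foxa2 and Hnf4a, which are 2 of the 5, were 1.98-fold and 1.54-fold higher, Hnf4a on 4 of 4 sets. Lifr, the receptor for leukemia inhibitory factor, read 1097 in the Tmprss6-deficient liver and 1766 in the control liver, 1.61-fold lower on the brighter of 2 sets, both lower. Jak3 read 42.6 in the Tmprss6-deficient liver and 27.2 in the control liver, near the floor.

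Of the cytokine and chemokine transcripts on these lists, some were below the floor and others were not, and they are named here after their values were seen. Il6 read 9.90 in the Tmprss6-deficient liver and 2.30 in the control liver, both below 17.8, and so were Il11, Lif, Osm and Il10 on both arrays, as were Il1a, Tnf, Ccl2 and Cxcl2. Above it on both arrays were Il18 (133 and 131), Cxcl1 (85.8 and 89.1), Ctf1 (86.2 and 110.1) and Clcf1 (34.3 and 24.2), with the Tmprss6-deficient value first in each pair and each within 1.5-fold. Il1b was above the floor in the control liver alone, at 15.7 in the Tmprss6-deficient liver and 30.7 in the control liver, at least 1.72-fold lower. Cxcl10 was above it in the Tmprss6-deficient liver alone, at 26.5, at least 1.49-fold higher. A signal below the floor gives no ratio and does not show that a transcript is absent. Of 29 measured genes of IL-1, TNF and NF-kB signalling, 4 passed 1.5-fold upward, or 13.8%, and 3 downward, or 10.3%, against 8.86% and 9.20% of all genes, around a median log2 ratio of 0.021. Both arrays gave a value over the floor for 22 of the 29, and the others enter at a bound. Traf6, an adaptor of IL-1 receptor signalling, has the largest ratio of the list, and was named after its value was seen. It read 54.4 in the Tmprss6-deficient liver and 12.7 in the control liver, below the floor there, at least 3.06-fold higher. Rela, a subunit of NF-kB, read 623 in the Tmprss6-deficient liver and 393 in the control liver, 1.58-fold higher. The adhesion molecule gene Vcam1 was 1.60-fold higher on the brightest of 3 sets, 1 of which was lower. Tnfrsf1b, a TNF receptor, was 1.52-fold lower on the brighter of 2 sets, which differed in direction. Nfkbie, Ly96 and Tlr2 had log2 ratios of 0.68, -0.59 and -0.56 at dim signals, and those of Nfkbie and Tlr2 lay near the floor on both arrays.

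**Figure D5:**
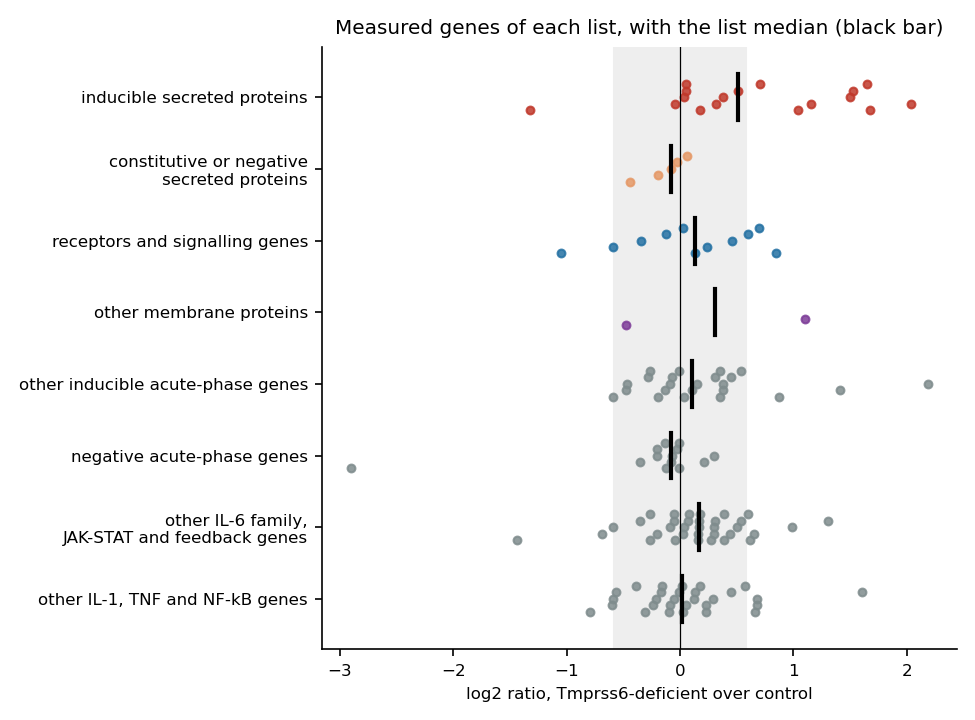
Log2 ratio, Tmprss6-deficient over control, of each measured gene in the 4 role groups (coloured) and in the 4 further lists (grey), with the list median as a black bar and 1.5-fold in either direction as a grey band. The inducible secreted proteins have the highest median, 0.51, and the grey lists centre between -0.075 and 0.16.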

How the data were processed

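Liver RNA of 1 Tmprss6-deficient and 1 control mouse was labelled with biotin and hybridised to mouse arrays, per the labels' protocols, and samples were grouped by title. The deposited intensity signals come from MAS5, per the submitters' processing notes, and its version and settings are not stated. They are linear, from 0 to 42541, and both arrays have a mean of 100.0 once the lowest and highest 2% of sets are left out. MAS5 signals near background are noisy.

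Of 45101 probe sets, 34945 had 1 gene symbol in the platform annotation, 932 had several and were not named, 9211 were not listed there, and 64 were controls. Both arrays were brought to 1 trimmed mean, values under the floor were raised to it, and log2 values were formed. Measured means above the floor on at least 1 array, except for a probe set, where it means on both. A gene above it on 1 array enters at a bound. Python 3.11.15 with pandas 2.3.3 and statsmodels 0.14.6 was used, and the procedure was tested on simulated arrays.

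The genes, role groups and lists were chosen with earlier results of these data known, and the motifs after the ratios were. All 37 genes are named, with up to 6 of each further list by size of ratio above the floor on both arrays. Genes outside this rule are marked in the text as named after their values were seen. Alternatives covered scaling, the floor, the choice of probe set and the fold threshold. Gene names, gene order and promoters come from RefSeq (GRCm38.p6), and no array coordinates are given.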

Additional observations from a re-analysis of the deposited data

How the results depend on the processing

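With 1 array per genotype no array can be left out, and no paired analysis was possible because each group holds 1 sample. A value is said to have moved when it changed by more than the probe set spread, which for a median was scaled to the number of genes. The 4 scalings, the floors at the 30th and 70th percentile and the pseudocount kept the count of higher genes at 10 to 12 and of lower genes at 2 or 3. Scaling to the median gave a median log2 ratio over all genes of -0.064, against -0.0050 as reported. The choice of probe set moved more. With the second brightest set, which 15 of the 35 genes have, 5 were higher and 1 was lower, against 12.2% and 8.63% of all genes, and the medians were 0.39 over all 15, 0.25 for inducible secreted proteins and 0.43 for signalling genes. On that setting the inducible group held Saa1, Lbp and Il1rn alone, and the constitutive group, then Saa4 alone, turned to 0.25. With the mean of all measured sets 1 gene was lower, and the medians were 0.26 over all genes and 0.38 for inducible proteins. With plain _at sets these medians were 0.061 and 0.38. The difference between secreted and signalling genes turned to -0.055, -0.19 and -0.070 with the mean, the second brightest and the plain sets. Without the Saa1, Saa2, Saa3, Orm1, Orm2 and Orm3 genes, the inducible median was 0.32. With genes whose measured sets all share a direction, a setting chosen after seeing the data, 1 gene was lower and the median was 0.28. Socs3 turned to 0.071 with its second set. The cause of these shifts was not tested beyond the fewer genes or sets they use. Of the 15 genes past 1.5-fold, 9 stayed past it in every setting that gave them a value. These were Saa1, Saa2, Orm2, Orm3, Lcn2, Serpina3n, Fgl1 and Steap4 on the higher side and Apcs on the lower. Saa1 and Saa2 may not be separate measurements. Of these 9 only Saa1 and Steap4 have a second probe set. The others have 1 set, so the choice among sets could not change them. Signals near the floor limit Saa3, Il1rn, Cd14 and Socs3. They also limit Orm3, which read 50.7 in the control liver and whose log2 ratio went from 1.16 to 0.93 with the pseudocount.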
